A study of Homo sapiens with 10 samples.

Results

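The RAS-MAPK regulators and output genes described here are NRAS, NF1, DUSP4, DUSP6, SPRY2, SPRY4, SPRED1, ETV4, ETV5 and PHLDA1, chosen by gene symbol. Of these 10 genes, 9 had a probe set with that symbol in the platform annotation, 1 probe set each, out of 21448 gene probe sets tested. NRAS was not analysed here. Levels are given as deposited log2 signals, on which a difference of 1 is a doubling, and only the same probe set is compared between arrays.

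RNA was measured in SK-N-AS and SK-N-FI, both established human neuroblastoma cell lines. Treated SK-N-AS cells (3 arrays, numbered 28, 29 and 30) and treated SK-N-FI cells (2 arrays) had received 30 µM BG-P1600-TAT for 48 h, and control SK-N-AS cells (3 arrays, numbered 25, 26 and 27) and control SK-N-FI cells (2 arrays) had received PBS for as long. The series title presents this agent as PEGylated and directed at both the norepinephrine transporter and the integrin αvβ3, and the titles of the treated SK-N-AS arrays shorten its name to BG-P-TAT, which is taken here as the same agent. All cells were grown in IMDM with 10% FBS. Whether the SK-N-AS samples are separate cultures is not stated in the labels, and p-values there cover only the spread among arrays, possibly technical.

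RAS proteins are membrane switches that, when bound to GTP, start the RAF, MEK and ERK kinase cascade, and GTPase-activating proteins such as neurofibromin, the product of NF1, turn them off. Active ERK induces genes that restrain the cascade in return, among them the DUSP phosphatases and the Sprouty and SPRED proteins, and it also induces transcription factors of the ETS family such as ETV4 and ETV5. These ERK-induced transcripts are widely used as a readout of pathway output. Lesions of this pathway, including loss of NF1 and activating RAS mutations, recur in neuroblastoma, and SK-N-AS is known to carry an activating NRAS mutation. RNA levels do not measure the activity of RAS or ERK proteins.

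Transcripts of NF1, DUSP4 and SPRY4 were lower, and those of PHLDA1 higher, in SK-N-AS than in SK-N-FI on both scales used below. The DUSP4 promoter was not analysed here. Promoters of the other 3 genes are shown. Each is the 250 bases before the annotated start from RefSeq on GRCh38.p14, read 5′ to 3′ on the gene's own strand, with motif matches in capitals. The NF1 stretch lies at chr17:31094727-31094976 on the plus strand, the SPRY4 stretch at chr5:142324248-142324497 on the minus strand and the PHLDA1 stretch at chr12:76031777-76032026 on the minus strand.
NF1: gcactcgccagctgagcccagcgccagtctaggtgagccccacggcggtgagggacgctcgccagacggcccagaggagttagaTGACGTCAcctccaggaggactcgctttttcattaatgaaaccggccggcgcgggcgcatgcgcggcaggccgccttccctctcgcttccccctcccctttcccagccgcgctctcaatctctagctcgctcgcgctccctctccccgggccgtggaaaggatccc
SPRY4: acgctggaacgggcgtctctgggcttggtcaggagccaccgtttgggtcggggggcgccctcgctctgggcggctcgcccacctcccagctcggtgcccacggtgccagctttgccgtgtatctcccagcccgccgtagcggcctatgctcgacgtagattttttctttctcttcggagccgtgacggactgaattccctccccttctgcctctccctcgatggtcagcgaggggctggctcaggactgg
PHLDA1: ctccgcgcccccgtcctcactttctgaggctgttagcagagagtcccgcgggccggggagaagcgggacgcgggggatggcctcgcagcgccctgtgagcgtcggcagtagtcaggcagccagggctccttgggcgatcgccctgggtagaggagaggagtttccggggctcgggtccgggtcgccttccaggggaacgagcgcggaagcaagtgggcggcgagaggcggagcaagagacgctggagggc
On both strands, 5 motifs were searched. The ETS motif CCGGAAG occurs in 8.52% of 35116 RefSeq promoter windows of the same length, the AP-1 motif TGANTCA in 6.57%, the cyclic AMP response element TGACGTCA in 1.65%, the CArG box of serum response factor in 1.16% and the EGR motif GCGTGGGCG in 0.72%. The 1 match in these stretches was the cyclic AMP response element of NF1, whose first base lies 166 bases upstream of the start. That motif is its own reverse complement, so both strands give the same site. The other letters searched were not in these windows. The GC content was 67.2% in the NF1 stretch, 65.6% in the SPRY4 stretch and 70.4% in the PHLDA1 stretch.

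A reading counted as above background where it was brighter than 95% of the array's own negative controls, 612 probe sets on each array. All 9 measured genes were above background on all 10 arrays, as were 27.2% of all gene probe sets. The narrowest margins over that threshold were 0.42 for NF1 on treated SK-N-AS array 28 and 0.48 for ETV4 on treated SK-N-FI array 1. SPRY4 came within 1.02 on treated SK-N-AS array 30 and SPRED1 within 1.18 on control SK-N-AS array 25. DUSP4 was never closer than 5.18. NF1, SPRY4 and SPRED1 in SK-N-AS and ETV4 in both lines were therefore read near the floor of the arrays. With the 99th percentile in its place, 50 of the 90 readings were above background. NF1 and SPRY4 were then below it on every SK-N-AS array, and ETV4 on all 10 arrays.

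The arrays of each line share a scale that the other line does not. The median signal was 6.02 to 6.09 on SK-N-AS arrays and 7.02 to 7.07 on SK-N-FI arrays, and the mean upper quartile was 8.83 in SK-N-AS and 10.53 in SK-N-FI, as if each line had been normalized on its own. Line and any difference between array runs cannot be told apart. The noradrenergic marker DBH, the enzyme that makes norepinephrine, was above background on no SK-N-AS array and averaged 14.14 ± 0.14 (SD, n = 2) in control SK-N-FI. The first principal component of the SK-N-AS arrays carried 50.04% of their variance and placed control array 25 at -57.5 and treated array 28 at -31.0, with the other 4 arrays between 4.33 and 50.6. Leukocyte markers were above background on no array for 3 of 4 genes measured, with PTPRC above on 5 SK-N-AS arrays. Epithelial markers were above on none for 4 of 5, with CLDN4 above on 3 SK-N-AS arrays.

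The first question was whether 48 h of BG-P1600-TAT altered these transcripts in either line. No measured gene passed the test in SK-N-AS or in SK-N-FI. In SK-N-AS, 8 of 9 gene means were lower after treatment (median log2 change -0.15, against -0.00 over all probe sets, 50.8% of which had a lower mean). In SK-N-FI, 7 of 9 were lower (median -0.13, against -0.01 over all, 51% of which had a lower mean). Limma's moderated test with Benjamini-Hochberg adjustment over all 21448 probe sets called none of the 9 genes in either line, where the background was 0% of probe sets in each. At an unadjusted p under 0.05 none of the 9 genes passed in either line, and 557 probe sets (2.6%) passed in SK-N-AS and 611 (2.85%) in SK-N-FI.

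**Figure D1:**
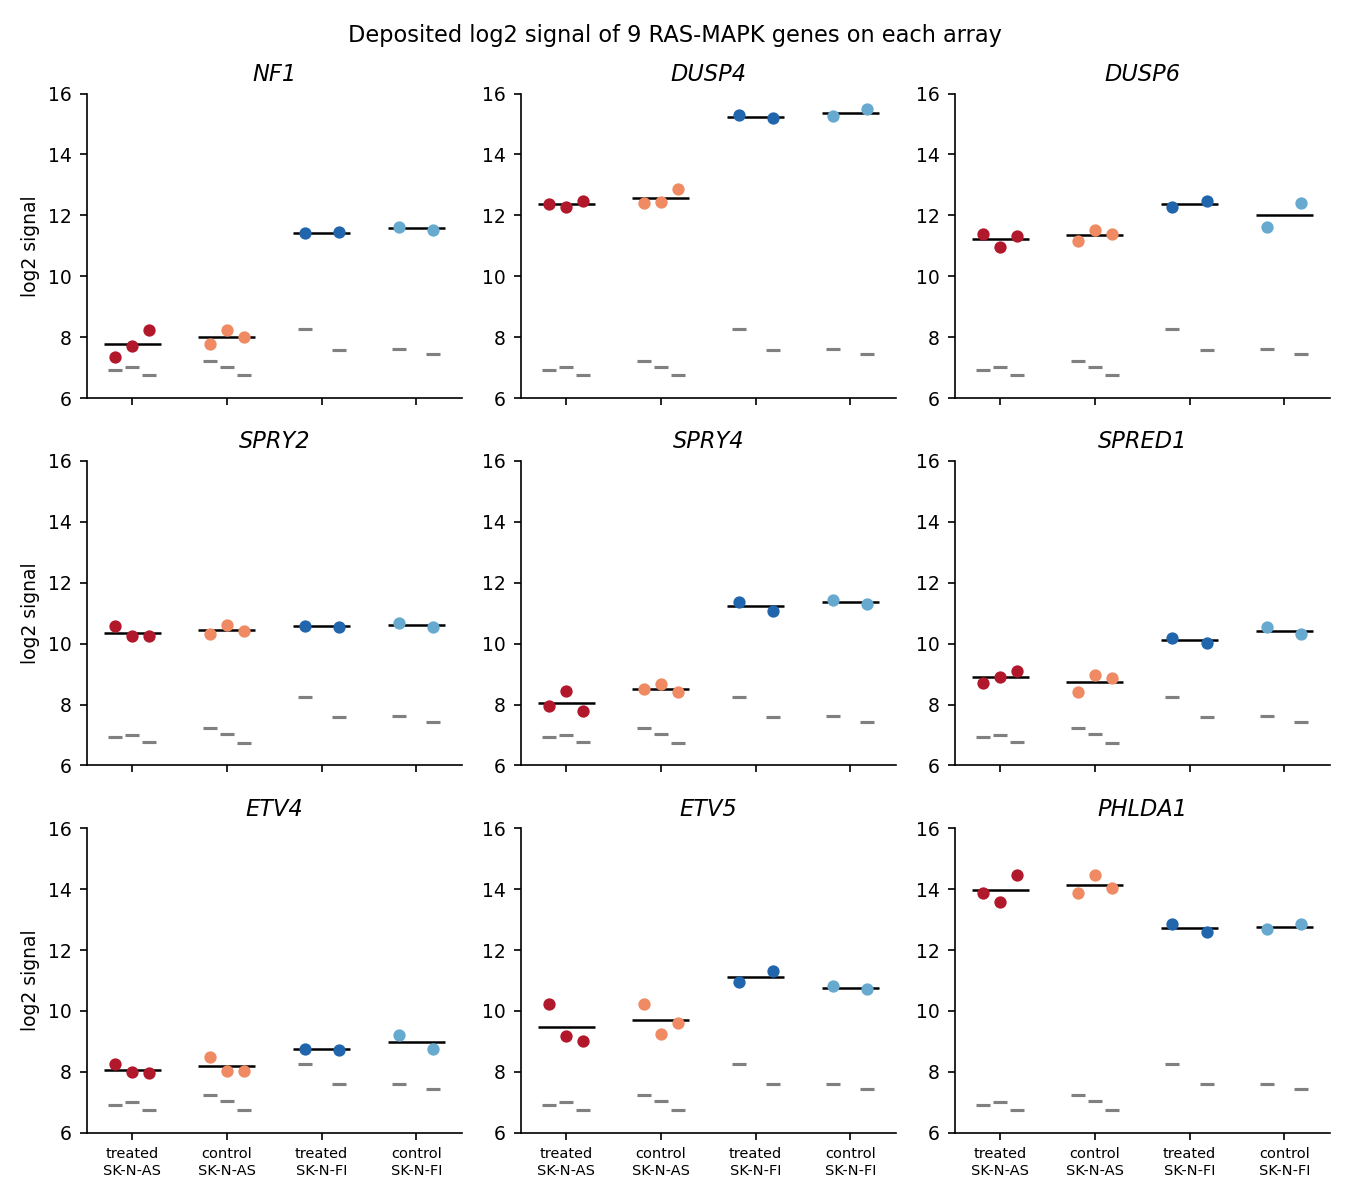
Deposited log2 signal (y axis) of the 9 measured genes on each of 10 arrays, by group along the x axis: dots are arrays, black bars group means and grey dashes the 95th percentile of that array's negative controls. Treated and control dots lie close together within each line, while NF1, DUSP4 and SPRY4 sit lower and PHLDA1 higher in SK-N-AS than in SK-N-FI.

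NF1 is the negative regulator at the top of this group. It read 7.34, 7.70 and 8.24 on the treated SK-N-AS arrays, against 7.77, 8.22 and 8.02 on the control SK-N-AS arrays. It read 11.41 and 11.45 on the treated SK-N-FI arrays, against 11.61 and 11.53 on the control SK-N-FI arrays. Treated and control arrays overlapped in SK-N-AS, where array 28 was lowest. In SK-N-FI both treated arrays lay below both controls, as they did for 14% of all probe sets. The log2 change was -0.24 in SK-N-AS (95% interval -0.85 to 0.36) and -0.14 in SK-N-FI (-0.63 to 0.35), with limma's adjusted p at 1.00 in both. A change of -1 in the NF1 signal lies outside both intervals, which cover only the spread among arrays. In SK-N-AS that signal was near the floor of the arrays, so a halving of the RNA itself is not excluded there.

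DUSP4 and DUSP6 are dual-specificity phosphatases that remove the activating phosphates from ERK, DUSP4 in the nucleus and DUSP6 in the cytoplasm. DUSP4 read 12.36, 12.29 and 12.46 in treated SK-N-AS, against 12.41, 12.43 and 12.85 in control SK-N-AS. In SK-N-FI it read 15.29 and 15.19 after treatment, against 15.25 and 15.48 in controls. Groups overlapped in both lines, with log2 changes of -0.19 (95% interval -0.67 to 0.28) in SK-N-AS and -0.13 (-0.63 to 0.38) in SK-N-FI.

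DUSP6 read 11.39, 10.96 and 11.33 in treated SK-N-AS, against 11.17, 11.53 and 11.40 in control SK-N-AS. In SK-N-FI its readings were 12.27 and 12.47 after treatment, against 11.63 and 12.41 in controls. The low control array 1 set the SK-N-FI difference: the log2 change was 0.34 (95% interval -0.34 to 1.03) with all 4 arrays and -0.045 without that array. In SK-N-AS the change was -0.14 (-0.63 to 0.35). Neither line passed limma's test (adjusted p = 1.00 in each).

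SPRY2, SPRY4 and SPRED1 encode membrane-associated inhibitors of signalling from receptors to RAF, and SPRED1 also brings neurofibromin to the membrane. SPRY2 read 10.57, 10.26 and 10.25 in treated SK-N-AS, against 10.32, 10.61 and 10.42 in control SK-N-AS. In SK-N-FI it read 10.59 and 10.55 after treatment, against 10.67 and 10.53 in controls. Groups overlapped in both lines, with log2 changes of -0.09 (95% interval -0.55 to 0.37) in SK-N-AS and -0.03 (-0.52 to 0.46) in SK-N-FI.

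SPRY4 readings were 7.95, 8.44 and 7.78 in treated SK-N-AS, against 8.50, 8.66 and 8.40 in control SK-N-AS, so that only treated array 29 reached into the control range. The log2 change of -0.46 (95% interval -0.98 to 0.06) had an unadjusted p of 0.0783 and an adjusted p of 1.00 in limma's test, and 3.51% of all probe sets had a lower value. In SK-N-FI it read 11.38 and 11.07 after treatment, against 11.44 and 11.29 in controls, a change of -0.14 (-0.66 to 0.39) with overlapping arrays.

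SPRED1 was the 1 gene of the 9 with a higher mean in treated SK-N-AS. It read 8.70, 8.91 and 9.11 there, against 8.41, 8.97 and 8.87 in control SK-N-AS, a log2 change of 0.16 (95% interval -0.36 to 0.68). In SK-N-FI it read 10.19 and 10.02 after treatment, against 10.54 and 10.31 in controls, a change of -0.32 (-0.83 to 0.19) with both treated arrays below both controls. Neither value passed limma's test (adjusted p = 1.00 in each). Without control array 25, where SPRED1 was lowest, the SK-N-AS change was -0.011.

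ETV4 and ETV5 are ETS-family transcription factors of the PEA3 group. ETV4 read 8.26, 7.98 and 7.95 in treated SK-N-AS, against 8.50, 8.04 and 8.04 in control SK-N-AS. In SK-N-FI it read 8.74 and 8.73 after treatment, against 9.21 and 8.74 in controls. The log2 changes were -0.13 (95% interval -0.63 to 0.37) in SK-N-AS and -0.24 (-0.80 to 0.32) in SK-N-FI, where the treated arrays lay below the controls by a margin smaller than the second decimal and the change was -0.011 without control array 1.

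ETV5 varied most between SK-N-AS arrays. It read 10.24, 9.18 and 9.02 in treated SK-N-AS, against 10.23, 9.24 and 9.59 in control SK-N-AS. The high readings of both groups were arrays 28 and 25, the pair at the negative end of the first principal component, on which ETV4 was also highest. Their part in the result was not tested beyond leaving them out. The log2 change was -0.21 (95% interval -1.05 to 0.63) with all arrays and -0.32 without those 2. In SK-N-FI the readings were 10.95 and 11.31 after treatment, against 10.81 and 10.72 in controls. Both treated arrays lay above both controls, as they did for 13.8% of all probe sets, and the change was 0.37 (-0.16 to 0.90). Limma's adjusted p was 1.00 in both lines.

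PHLDA1, a pleckstrin homology-like domain protein induced by growth factor signalling, read 13.86, 13.59 and 14.46 in treated SK-N-AS, against 13.88, 14.46 and 14.05 in control SK-N-AS. In SK-N-FI it read 12.85 and 12.59 after treatment, against 12.69 and 12.85 in controls. Groups overlapped in both lines. The log2 changes were -0.15 (95% interval -0.78 to 0.47) in SK-N-AS and -0.05 (-0.57 to 0.47) in SK-N-FI.

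**Figure D2:**
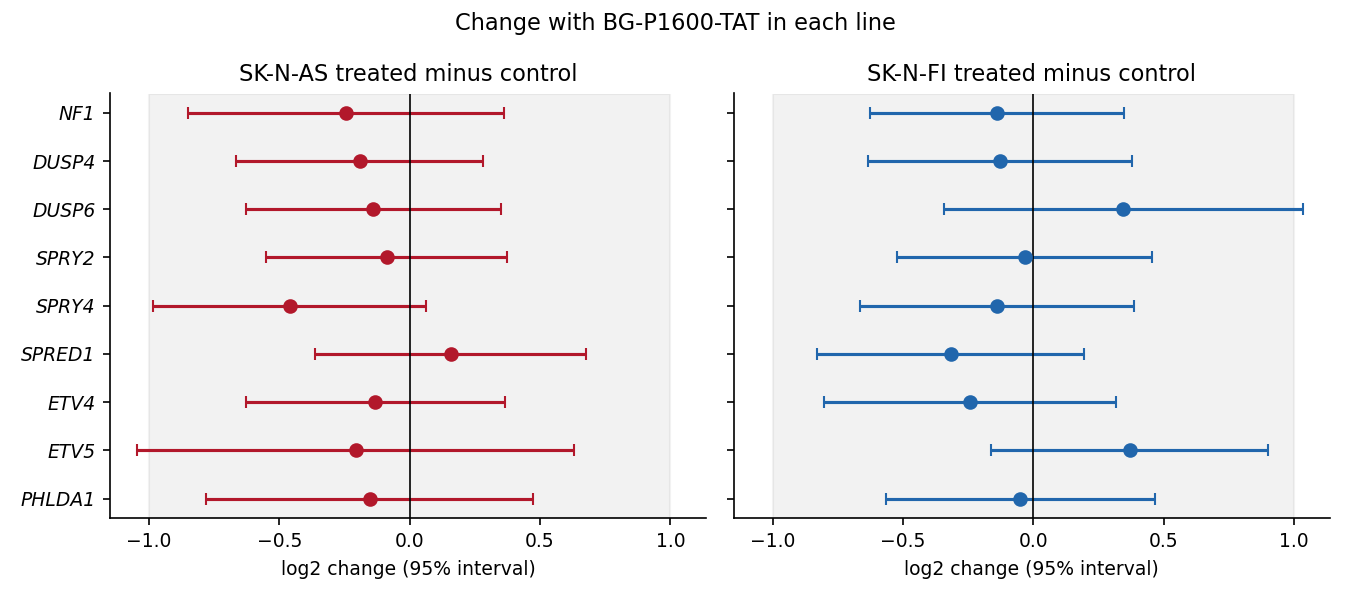
Log2 change, treated minus control (x axis), of the 9 genes in SK-N-AS and in SK-N-FI with 95% intervals from limma; the grey band spans a halving to a doubling. Every interval includes 0, and those of ETV5 in SK-N-AS (-1.05 to 0.63) and DUSP6 in SK-N-FI (-0.34 to 1.03) reach past the band.

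In SK-N-AS the treated and control arrays of every one of the 9 genes overlapped, where 4.02% of all probe sets were separated downward and 3.29% upward. In SK-N-FI, 3 genes (NF1, SPRED1 and ETV4) were separated downward and ETV5 upward, against 14% and 13.8% of all probe sets. A signal change of more than 2-fold lay outside the interval of 8 of the 9 genes in each line. The exceptions were ETV5 in SK-N-AS and DUSP6 in SK-N-FI. For genes read near the floor of the arrays, these intervals do not bound the change in RNA. In bulk RNA fewer cells of a kind and less RNA per cell cannot be told apart.

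Whether treatment acted differently in the lines was tested by the difference of the treatment changes, SK-N-AS minus SK-N-FI, over all 10 arrays. Limma called none of the 9 genes, with a background of 0% of probe sets and 457 (2.13%) at an unadjusted p under 0.05, none of them among the 9. The differences ran from -0.58 for ETV5 (95% interval -1.72 to 0.56) and -0.48 for DUSP6 (-1.31 to 0.34) to 0.47 for SPRED1 (-0.26 to 1.21).

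The pathway around these genes was followed in 6 further lists with 65 measured genes of 74 listed, of which 22 were above background on all 10 arrays and 18 on none. Treatment passed limma's test for none of the 65 genes in either line, or in the difference between lines, with 3, 0 and 2 genes at an unadjusted p under 0.05. Median changes over the 65 were -0.07 in SK-N-AS and 0.04 in SK-N-FI. Of the genes with the smallest p in each list, LIF, ARAF and RRAS2 were above background on all 6 arrays in SK-N-AS, and none was above on all 4 in SK-N-FI. LIF, a cytokine of the interleukin-6 family, averaged 9.60 ± 0.19 in treated SK-N-AS and 10.21 ± 0.27 in control SK-N-AS (SD, n = 3 each), a log2 difference of -0.61 with an unadjusted p of 0.0236 and an adjusted p of 1.00 in limma's test. The RAF kinase ARAF averaged 10.61 ± 0.34 in treated and 11.10 ± 0.25 in control SK-N-AS (SD, n = 3 each), a difference of -0.50 with an unadjusted p of 0.0745 and an adjusted p of 1.00 in limma's test. RRAS2, a RAS-related GTPase, differed by 0.24 (unadjusted p = 0.262 in limma's test). The 9 listed genes with no measured probe set were not analysed here.

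The other comparison the design allows is between the lines, and here genes passed the test. NF1, DUSP4 and SPRY4 were lower and PHLDA1 was higher in SK-N-AS than in SK-N-FI, in treated and in control arrays. The direction and the call of these 4 genes held as deposited, after quantile normalization over all 10 arrays and after centring each array on its negative controls. Centring left the median difference over all probe sets at -0.53 in treated and -0.47 in control arrays. It therefore stays close to the deposited scale and is not a separate check. For DUSP6, SPRY2, SPRED1 and ETV4 the direction turned with quantile normalization in both treated and control arrays, and for ETV5 it turned in control arrays.

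The offset between the scales of the lines was measured over all probe sets. It was not the same at all brightness levels, since the mean lower quartile was 4.24 in SK-N-AS and 4.39 in SK-N-FI. As deposited, the median log2 difference over all probe sets was -0.62 in treated and -0.61 in control arrays, and over the 5834 probe sets above background on all arrays it was -1.31 in both. After quantile normalization the median over all probe sets was 0.02 in treated and 0.03 in control arrays. In control arrays as deposited, limma called 6 of the 9 genes lower in SK-N-AS (background 47.8%) and 1 higher (background 11.5%). After quantile normalization 3 were lower (background 22.8%) and 4 higher (background 23.9%). In treated arrays the deposited values gave 7 lower (background 47.8%) and 1 higher (background 11.2%), and quantile normalization gave 3 lower (background 22.2%) and 3 higher (background 23.4%). Calls in the same direction on both scales and in both treated and control arrays were made for 3 lower genes (background 18.9%) and 1 higher gene (background 9.09%). All 9 genes were among the 5834 probe sets above background on all arrays. Of those probe sets, 70.8% were called lower and 7.06% higher in treated arrays as deposited, and 70.7% and 7.28% in control arrays. Calls in the same direction on both scales, in treated and control arrays, made up 19.6% lower and 6% higher. With 9 genes the counts above show nothing particular to the group.

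NF1 averaged 7.76 ± 0.45 in treated SK-N-AS (SD, n = 3) and 11.43 ± 0.03 in treated SK-N-FI (SD, n = 2). The controls averaged 8.01 ± 0.23 in SK-N-AS and 11.57 ± 0.06 in SK-N-FI (SD, n = 3 and 2). Its level in SK-N-AS was 12.7-fold lower in treated arrays (log2 difference -3.67, 95% interval -4.26 to -3.09, limma adjusted p = 2.29e-07) and 11.8-fold lower in control arrays (-3.57, -4.15 to -2.98, limma adjusted p = 2.88e-07). Quantile normalization brought these to 4.24-fold (adjusted p = 5.01e-05) and 3.86-fold (adjusted p = 8.31e-05) lower. The SK-N-AS readings lay 0.42 or more above the negative control threshold, near the floor of the arrays.

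DUSP4 averaged 12.37 ± 0.08 in treated SK-N-AS and 15.24 ± 0.07 in treated SK-N-FI, with controls at 12.56 ± 0.25 in SK-N-AS and 15.37 ± 0.16 in SK-N-FI (SD, n = 3 for SK-N-AS and 2 for SK-N-FI). It was 7.31-fold lower in treated SK-N-AS (log2 difference -2.87, limma adjusted p = 3.41e-07) and 6.99-fold lower in control SK-N-AS (-2.81, limma adjusted p = 4.03e-07). Among the 3 lower genes its difference moved least with the scale, to 4.80-fold in treated and 4.87-fold in control arrays after quantile normalization. Its phosphatase relative DUSP6 was 2.20-fold lower in treated SK-N-AS (-1.14, adjusted p = 0.00267) and missed the threshold in control arrays (-0.66, adjusted p = 0.0507). After quantile normalization the DUSP6 differences were 0.27 in treated arrays (adjusted p = 0.448) and 0.77 in control arrays (adjusted p = 0.0371), so no direction is given for it.

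The Sprouty genes parted. SPRY4 averaged 8.06 ± 0.34 in treated SK-N-AS and 11.22 ± 0.22 in treated SK-N-FI, with controls at 8.52 ± 0.13 in SK-N-AS and 11.36 ± 0.11 in SK-N-FI (SD, n = 3 for SK-N-AS and 2 for SK-N-FI). It was 8.98-fold lower in treated SK-N-AS (log2 difference -3.17, limma adjusted p = 3.47e-07) and 7.19-fold lower in control SK-N-AS (-2.85, limma adjusted p = 8.41e-07), and 2.89-fold and 2.27-fold lower after quantile normalization (adjusted p = 0.000469 and 0.00259). The SPRY4 readings in SK-N-AS lay 1.02 or more above the negative control threshold, near the floor of the arrays. SPRY2 arrays of the lines overlapped as deposited, with differences of -0.21 in treated arrays (adjusted p = 0.419) and -0.15 in control arrays (adjusted p = 0.555). After quantile normalization SPRY2 was higher in SK-N-AS, by 1.42 in treated arrays (adjusted p = 0.000166) and 1.47 in control arrays (adjusted p = 0.000120). SPRED1 was lower in SK-N-AS as deposited, with log2 differences of -1.20 in treated arrays (adjusted p = 0.000873) and -1.67 in control arrays (adjusted p = 6.23e-05), and differed by 0.50 and 0.034 after quantile normalization (adjusted p = 0.0888 and 0.917).

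Neither PEA3-group factor held its direction. ETV4 was lower in SK-N-AS as deposited, with log2 differences of -0.67 in treated arrays (adjusted p = 0.0303) and -0.78 in control arrays (adjusted p = 0.0139), and higher after quantile normalization, by 0.90 (adjusted p = 0.0141) and 0.83 (adjusted p = 0.0205). The deposited ETV4 call in control arrays was lost without control SK-N-FI array 1 (-0.55, adjusted p = 0.155). In treated arrays it was lost without either SK-N-FI array or without SK-N-AS array 29 or 30, at adjusted p values between 0.0729 and 0.106. ETV5 was lower as deposited, with log2 differences of -1.65 in treated arrays (adjusted p = 0.00195) and -1.08 in control arrays (adjusted p = 0.0239), and differed by -0.028 and 0.59 after quantile normalization (adjusted p = 0.960 and 0.222). Its deposited call in control arrays was lost without either SK-N-FI array or without SK-N-AS array 26 or 27, at adjusted p values between 0.0613 and 0.107.

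PHLDA1 was the 1 gene of the 9 higher in SK-N-AS on each scale. It averaged 13.97 ± 0.45 in treated SK-N-AS and 12.72 ± 0.18 in treated SK-N-FI, with controls at 14.13 ± 0.30 in SK-N-AS and 12.77 ± 0.12 in SK-N-FI (SD, n = 3 for SK-N-AS and 2 for SK-N-FI). As deposited it was 2.38-fold higher in treated SK-N-AS (log2 difference 1.25, limma adjusted p = 0.00208) and 2.56-fold higher in control SK-N-AS (1.36, limma adjusted p = 0.00117). After quantile normalization these were 4.92-fold and 5.23-fold (adjusted p = 2.29e-05 and 1.65e-05).

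**Figure D3:**
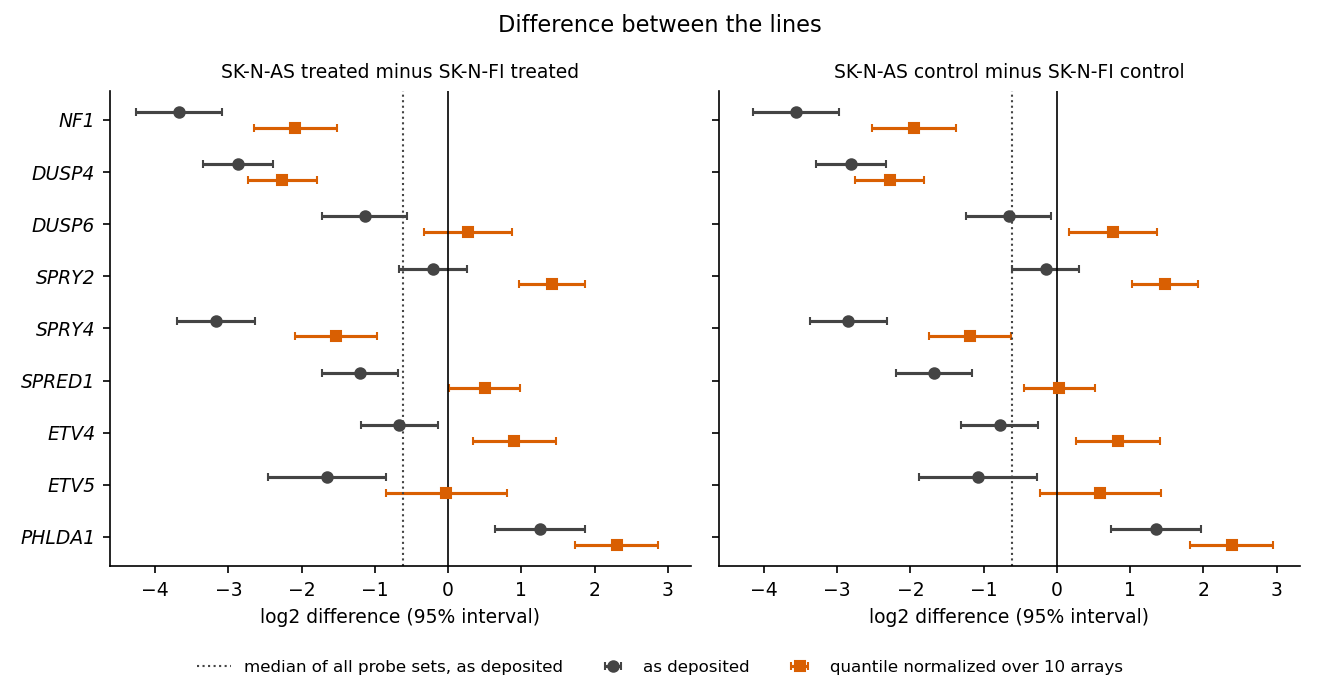
Log2 difference between lines, SK-N-AS minus SK-N-FI (x axis), of the 9 genes in treated arrays and in control arrays, as deposited and after quantile normalization, with 95% intervals; the dotted line is the median of all probe sets as deposited. NF1, DUSP4 and SPRY4 stay left of 0 and PHLDA1 right of 0 on both scales, while quantile normalization turns the sign of SPRY2, SPRED1, ETV4 and DUSP6 in both panels and of ETV5 in control arrays.

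By the spread of the arrays on the deposited scale, the lines were separated for all genes but SPRY2: 7 genes lay wholly lower and PHLDA1 wholly higher in SK-N-AS, in treated and in control arrays alike. After quantile normalization NF1, DUSP4 and SPRY4 still lay wholly lower and PHLDA1 wholly higher in both, while SPRY2 and ETV4 lay wholly higher in SK-N-AS in both, SPRED1 in treated arrays and DUSP6 and ETV5 in control arrays. On the deposited scale the background for such separation was 55.7% downward and 16.5% upward in treated arrays, and 56% and 17.2% in control arrays. No such share was computed after quantile normalization, so the separations on that scale are not read as a result about these genes. Set against the median of the 5834 well-measured probe sets, the control differences of NF1, DUSP4 and SPRY4 were -2.26, -1.50 and -1.54, SPRED1 stood at -0.37, and the others ran from 0.23 for ETV5 to 2.66 for PHLDA1. In treated arrays NF1, DUSP4 and SPRY4 stood at -2.36, -1.56 and -1.85 on that measure and PHLDA1 at 2.56, with SPRED1 at 0.11, ETV5 at -0.34 and the others from 0.17 for DUSP6 to 1.10 for SPRY2. SPRED1 and ETV5 thus changed sign on that measure between treated and control arrays. The measure subtracts 1 median at every brightness, while the offset between the lines differed with brightness, so it does not rank the genes reliably.

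Cell type markers moved with the lines as well. Summed log2 signals of 5 fibroblast markers were 47.3 to 51.0 in treated and 47.3 to 50.5 in control SK-N-AS, against 36.3 to 37.6 in treated and 36.5 to 37.7 in control SK-N-FI. The 5 did not move together: in control arrays as deposited limma put 3 of them higher in SK-N-AS, with COL1A2 (log2 difference -0.84, limma adjusted p = 0.0416) and PDGFRB (-0.64, adjusted p = 0.0201) lower. After quantile normalization these 2 differences were 0.81 and 0.85. COL1A1, 1 of the 3 higher markers, was above background on no array. The sum of 8 noradrenergic markers was 60.0 to 62.1 in treated and 59.7 to 61.7 in control SK-N-AS, against 91.3 to 94.1 in treated and 91.7 to 93.1 in control SK-N-FI. In control arrays limma put 7 of these 8 lower in SK-N-AS and 0 higher as deposited, and 4 lower and 1 higher after quantile normalization. On the latter scale CHGA differed by 1.23, HAND2 by -0.15 and GATA3 by -0.29, and TH was above background on no array. The sum of 8 mesenchymal neuroblastoma markers was 65.5 to 66.9 in treated and 63.6 to 68.0 in control SK-N-AS, against 60.9 to 61.7 in treated and 60.2 to 61.1 in control SK-N-FI. Members of that list ran both ways in control arrays as deposited, with FN1 higher in SK-N-AS (log2 difference 6.14, limma adjusted p = 3.02e-08) and CD44 (-2.70, adjusted p = 5.17e-07) and SNAI2 (-1.62, adjusted p = 0.000176) lower. CD44 stayed lower after quantile normalization (-1.03, adjusted p = 0.00233), and SNAI2 then missed the threshold (-0.15, adjusted p = 0.652). The part of these markers in the differences of the 9 genes was not tested.

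Among the 65 other pathway genes, 14 were higher and 34 lower in treated SK-N-AS as deposited, and 14 higher and 32 lower in control SK-N-AS. The shares over all probe sets were 11.2% higher and 47.8% lower in treated arrays, and 11.5% and 47.8% in control arrays. Quantile normalization gave 23 higher and 18 lower in treated arrays (23.4% and 22.2% of all probe sets) and 24 and 18 in control arrays (23.9% and 22.8%). Calls in the same direction on both scales and in both treated and control arrays were made for 13 genes higher and 17 lower in SK-N-AS, against 9.09% and 18.9% of all probe sets. Of these 30 genes, 7 were above background on no array. Adaptors and exchange factors had 1 higher and 4 lower of 14, other feedback inhibitors 2 higher and 5 lower of 16, and other output genes 8 higher and 5 lower of 19.

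SPRY1, another Sprouty inhibitor, stood opposite to SPRY4. It averaged 13.58 ± 0.09 in treated SK-N-AS and 8.62 ± 0.18 in treated SK-N-FI, with controls at 13.43 ± 0.29 in SK-N-AS and 8.38 ± 0.17 in SK-N-FI (SD, n = 3 for SK-N-AS and 2 for SK-N-FI). The log2 difference was 4.96 in treated arrays (limma adjusted p = 5.44e-09) and 5.06 in control arrays (limma adjusted p = 4.44e-09), and 6.19 and 6.27 after quantile normalization. Among the phosphatases, DUSP5, which acts on nuclear ERK, was above background on the SK-N-FI arrays alone and was at least 4.11-fold lower in treated and at least 3.70-fold lower in control SK-N-AS as deposited, and at least 1.46-fold and 1.27-fold lower after quantile normalization. A bound of this kind sets the line that was above background against the negative control threshold of the other. Of the other inhibitors, the receptor antagonist IL17RD was at least 2.56-fold lower in control SK-N-AS as deposited, with no bound above 1 after quantile normalization. The phosphatase DUSP1 was at least 1.03-fold higher in control SK-N-AS as deposited and at least 2.63-fold higher after quantile normalization. In treated arrays DUSP1 had no bound above 1 as deposited (limma adjusted p = 0.00289) and was at least 1.94-fold higher after quantile normalization. Among all genes given with a bound on the deposited scale, the largest limma adjusted p on that scale was 0.000450, for DUSP1 in control arrays.

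Upstream, RASGRF1, a calcium-responsive RAS exchange factor, was above background on the SK-N-FI arrays alone and at least 25.4-fold lower in treated and at least 26.9-fold lower in control SK-N-AS as deposited. After quantile normalization these bounds were 8.93-fold and 9.30-fold. SOS2, another exchange factor, was at least 8.30-fold lower in control SK-N-AS as deposited and 2.69-fold after quantile normalization. RASA3, a RAS GTPase-activating protein, was above background on no SK-N-AS array and was at least 3.55-fold lower in treated and at least 3.66-fold lower in control SK-N-AS as deposited, and 1.28-fold and 1.26-fold after quantile normalization. RRAS2 was above background on the SK-N-AS arrays alone and at least 1.07-fold higher in treated and 1.19-fold higher in control SK-N-AS as deposited, and 2.87-fold and 3.05-fold after quantile normalization. Its relative RRAS was at least 2.28-fold higher in control SK-N-AS as deposited and 6.001-fold after quantile normalization. The RAF scaffold KSR1 was at least 3.72-fold lower in treated and 3.25-fold lower in control SK-N-AS as deposited, and 1.33-fold and 1.14-fold after quantile normalization. HRAS and the MEK kinase MAP2K1 were lower in SK-N-AS as deposited, with log2 differences of -1.77 and -1.66 in treated and -1.63 and -1.41 in control arrays. After quantile normalization both missed the threshold, with control differences of -0.04 for HRAS and 0.29 for MAP2K1.

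Among the other output genes, EGR1, a zinc finger factor induced within minutes of ERK activation, was above background on the SK-N-FI arrays alone and at least 25.2-fold lower in treated and 19.2-fold lower in control SK-N-AS as deposited, and 8.88-fold and 6.38-fold after quantile normalization. CXCL8, the chemokine interleukin-8, was above background on the SK-N-AS arrays alone and at least 23.7-fold higher in treated and 39.5-fold higher in control SK-N-AS as deposited, and 55.6-fold and 85.1-fold after quantile normalization. LIF had the same pattern, at least 3.21-fold higher in treated and 6.45-fold higher in control SK-N-AS as deposited, and 8.66-fold and 16.2-fold after quantile normalization. The immediate early gene IER2 averaged 7.21 ± 0.17 in treated SK-N-AS and 10.39 ± 0.17 in treated SK-N-FI (SD, n = 3 and 2), a log2 difference of -3.19 as deposited (limma adjusted p = 1.44e-07) and -1.56 after quantile normalization (adjusted p = 0.000241). ETV1, the remaining PEA3-group factor, was lower in control SK-N-AS, at 10.07 ± 0.63 against 13.20 ± 0.07 in control SK-N-FI (SD, n = 3 and 2). Its log2 difference was -3.14 as deposited (limma adjusted p = 2.50e-05) and -1.78 after quantile normalization (adjusted p = 0.00263).

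**Figure D4:**
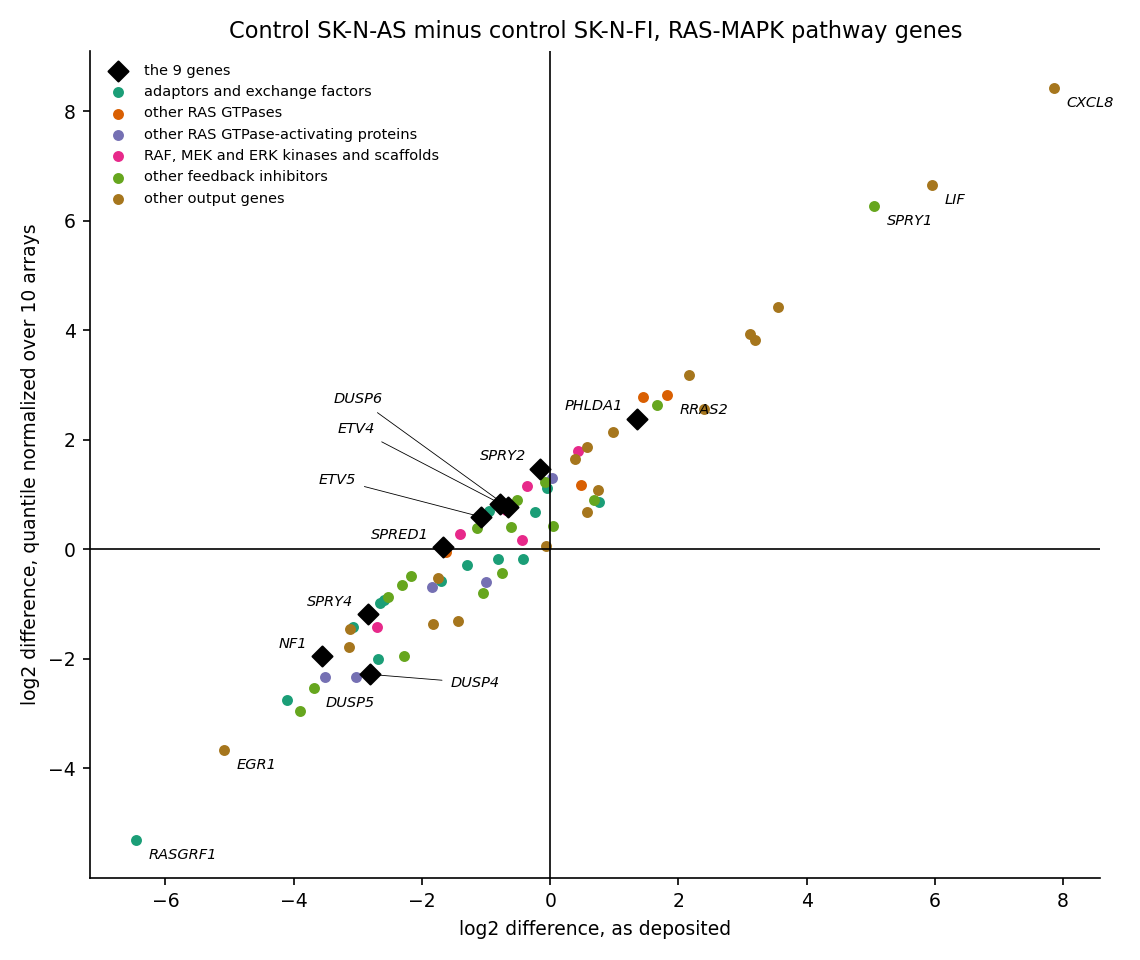
Log2 difference of control SK-N-AS minus control SK-N-FI as deposited (x axis) against the same difference after quantile normalization (y axis), for the 9 genes (black diamonds) and 65 other pathway genes coloured by list. Genes in the lower left (NF1, DUSP4, SPRY4, EGR1, RASGRF1) and upper right (PHLDA1, SPRY1, LIF, CXCL8) keep their direction on both scales, and those in the upper left change it.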

How the data were processed

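Total RNA of 10 cell line samples was biotin-labelled and read on Affymetrix whole-transcript arrays, per the labels' protocols. The authors deposited 1 log2 signal for each probe set and array. Transcriptome Analysis Console 4.0.1.36 and RMA are named, with no role, per the submitters' processing notes. RMA usually removes a shift shared by most genes of an array. Of 24351 probe sets, 2903 controls were left out and 21448 tested. Arrays have no count depth, and their number limits the precision.

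Groups came from the labels. Limma 3.58.1 in R 4.3.3 (lmFit, eBayes) was fitted to each line for treatment and to all 10 arrays in 4 groups for the line contrasts and the difference of treatment changes, with Benjamini-Hochberg adjustment over all probe sets at 0.05. The code was tested on simulated data. Alternatives were quantile normalization, negative control centring, a trended robust prior, leaving out dim probe sets, array weights, a shared spread, a replicate block and leaving out arrays. The series text mentions 3 SK-N-FI replicates, and 2 per condition were analysed here.

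The genes and lists were chosen with earlier results of these data known. All 9 measured genes are described. Of each other pathway list, the rule took, per comparison, the 2 called genes with the largest change in each direction. Where none was called it took the gene with the smallest p. Those described were above background on all arrays of the line for treatment, or of at least 1 group between lines. MRAS, RASAL2 and RASAL3, above on 2, 2 and 4 arrays, fell short. Values are not given for genes picked in the difference of treatment changes. NRAS was not analysed here. The labels do not say that a SK-N-FI replicate number is a shared batch, so the numbers were not taken as pairs. Same-numbered SK-N-FI arrays also did not deviate together (r = -0.17 over 21448 probe sets). On their first principal component control 1 and treated 2 stood at -20.9 and -25.6, and control 2 and treated 1 at 19.0 and 27.5.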

Additional observations from a re-analysis of the deposited data

How the results depend on the processing

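No treatment call appeared in either line or in their difference under any alternative run, and the line calls of NF1, DUSP4, SPRY4 and PHLDA1 kept direction and side of the threshold under all of them. Quantile normalization moved the line counts. In treated arrays it gave 5018 probe sets higher and 4751 lower (as deposited 2412 and 10253), 3 of the 9 genes higher and 3 lower (1 and 7), and 23 other pathway genes higher and 18 lower (14 and 34). In control arrays it gave 5124 higher and 4897 lower (2473 and 10253), 4 genes higher and 3 lower (1 and 6), and 24 other pathway genes higher and 18 lower (14 and 32). It turned the sign of DUSP6 (0.27 in treated and 0.77 in control arrays), SPRY2 (1.42 and 1.47), SPRED1 (0.50 and 0.034), ETV4 (0.90 and 0.83) and, in control arrays, ETV5 (0.59), and of the DUSP4 difference of treatment changes (0.021). Each array is then forced to 1 distribution, which by construction removes a shift shared by most probe sets. Leaving out dim probe sets, which leaves fewer to test, gave 6883 calls in treated arrays (799 higher, 6084 lower, with 5 and 22 other pathway genes) and 6911 in control arrays (821 higher, 6090 lower, with 5 and 21). DUSP6 in control arrays was called with the trended robust prior (adjusted p = 0.0390), without dim probe sets (0.0379), with array weights (0.0466) and without control SK-N-FI array 1 (0.0133). With the 99th percentile of the negative controls 50 of 90 readings were above background. Leaving out 1 array at a time turned signs of uncalled treatment changes. In SK-N-AS they ranged from -0.23 to 0.021 for ETV4, -0.59 to 0.063 for ETV5, -0.40 to 0.038 for PHLDA1 and -0.011 to 0.27 for SPRED1. In SK-N-FI they ranged from -0.045 to 0.73 for DUSP6, -0.18 to 0.078 for PHLDA1, -0.10 to 0.036 for SPRY2 and -0.29 to 0.013 for SPRY4. The differences of treatment changes ranged from -0.18 to 0.079 for DUSP4, -0.12 to 0.34 for ETV4, -0.35 to 0.10 for NF1, -0.35 to 0.087 for PHLDA1 and -0.16 to 0.023 for SPRY2. Where a group kept 1 array, it was assumed to vary like the others. With the SK-N-FI replicate number as a block, 0 probe sets were called, as without the block. In this balanced design the block cannot move a change (NF1 at -0.14), so the unchanged values say nothing about stability. Pairing the numbers crosswise, chosen after seeing the data, also called 0. Leaving out SK-N-AS arrays 25 and 28, also chosen after seeing the data, called 0 treatment changes.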
